A study of Mus musculus with 3 samples.

Results

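The SR splicing factors were taken as 10 genes fixed by symbol: Srsf1, Srsf2, Srsf3, Srsf4, Srsf5, Srsf6, Srsf7, Srsf10, Srsf11 and Tra2b, out of 20823 genes with a 5′UTR, a coding sequence (CDS) and a 3′UTR in the tables. Ribosome-protected fragments were sequenced from primary cortical neurons of embryonic CD-1 mice in 3 libraries, 1 per treatment, each made from 3 pooled dishes. Neurons of the Chx library received cycloheximide, which freezes elongating ribosomes, for 2 min. Neurons of the Harr library received harringtonine, which holds ribosomes at start codons while those already elongating run off, for 2 min before a cycloheximide pulse. Neurons of the WT library received no drug before harvest, but all 3 cultures were rinsed and lysed in buffers with 100 µg/ml of cycloheximide, so none is free of the drug. No genotype is given in the labels. The groups follow the titles and treatment labels, and the free-text descriptions of the samples conflict with these, since they name fractions and a depolarized state that belong to another experiment of the study. Because each treatment is a single library, no difference between treatments could be set against a replicate, no p-value was computed, and every interval below is a 95% counting interval that covers counting error only.

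SR proteins bind exonic enhancers through RNA recognition motifs and recruit the spliceosome through a domain rich in arginine and serine, whose phosphorylation by the SRPK and CLK kinases sets their nuclear localization and activity. Several of them also shuttle to the cytoplasm and act in mRNA export and translation. Many SR genes hold an ultraconserved alternative exon with a stop codon, a poison exon, whose inclusion sends the mRNA to nonsense-mediated decay and lets the SR protein limit its own level.

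By the deposited totals, Chx had 35722483 reads, WT had 30219197 and Harr had 9754412. Harr had the fewest reads in the CDS of the 10 genes, but not in their 5′UTRs or 3′UTRs, where the smallest summed counts were those of WT and Chx. Neuronal markers (6 of 6 listed, among them Map2 and Tubb3) summed to between 3811 and 5101 CDS reads per 1000000 deposited reads, against 78.8 to 213 for 4 astrocyte markers, 2.15 to 6.52 for 4 oligodendrocyte markers and 1.44 to 2.80 for 4 microglial markers, and the oligodendrocyte markers Mog and Mobp were at 0 in all 3 libraries. The part of other cell types in the values below was not tested, and a lower footprint count from fewer cells of a type cannot be told apart from one caused by less footprinted RNA per cell. Reads were placed by their 5′ ends, so the footprint of a ribosome on a start codon falls into the 5′UTR, a few bases before the ATG.

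The 10 genes had 89 annotated transcripts, of which 29 were protein-coding, 17 were targets of nonsense-mediated decay and 43 had no CDS. They lie on mm10 chromosomes 11 (Srsf1 and Srsf2), 17 (Srsf3 and Srsf7), 4 (Srsf4 and Srsf10), 12 (Srsf5), 2 (Srsf6), 3 (Srsf11) and 16 (Tra2b), with 6 on the plus strand and 4 on the minus strand. The CDS of Srsf1, Srsf2, Srsf4, Srsf6 and Srsf11 shared no 25-letter word with the transcripts of another gene. Of the words of the CDS of Srsf3, 95.7% occurred in other genes, as did 88.8% for Srsf10, 88.3% for Tra2b, 74.4% for Srsf5 and 17.5% for Srsf7, mostly in processed pseudogenes. Reads were also counted on these copies. Gm12966, which resembles Srsf5, held 2191 reads in Chx and 177 in Harr, against 2268 in WT. Gm10254, which resembles Tra2b, held 743, 152 and 651 reads in the same order. The methods of the study describe more than one alignment, one of them with TopHat allowing many hits per read, and the file headers do not say which alignment was counted here or where a read with several places was counted, so the CDS levels of these 5 genes are uncertain. Their 5′UTRs shared no word with another gene, except that 26.1% of the words of the Srsf3 5′UTR did.

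CDS levels were compared per length on the protein-coding transcript with the longest CDS, in reads per kilobase of CDS per 1000000 deposited reads (RPKM). Srsf3, which acts in splicing, export and polyadenylation-site choice, had the highest CDS level in Chx and WT, at 193 RPKM in Chx (186 to 199) and 53.0 in Harr (46.7 to 59.9), with 243 in WT (236 to 251). Srsf2, a nuclear SR protein that activates exons through enhancer binding, stood at 161 RPKM in Chx and 83.0 in Harr, against 212 in WT. Srsf1, the founding SR protein, stood at 150 RPKM in Chx and 57.6 in Harr, with 197 in WT. These genes ranked among the top 5.24% of genes by CDS level in each library.

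Srsf5 stood at 157 RPKM in Chx and 86.5 in Harr, against 188 in WT, and was the highest of the 10 in Harr. Srsf7, an SR protein with a zinc knuckle that takes part in mRNA export, stood at 116 RPKM in Chx and 78.8 in Harr, with 152 in WT. Srsf6 was in the middle of the order in every library, at 66.8 RPKM in Chx and 52.4 in Harr, against 74.4 in WT.

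The remaining 4 genes were the low end of the family. Srsf10, which represses splicing when dephosphorylated, stood at 35.3 RPKM in Chx and 10 in Harr, with 43.8 in WT. Srsf11 stood at 35.0 RPKM in Chx and 41.2 in Harr, against 34.2 in WT, the one member with its highest level in Harr. These levels include 101 reads in Chx and 120 in Harr, against 40 in WT, in the 15 nt before the start of a shorter form, Srsf11-202. The CDS of that form, 1431 nt long, leaves these out and held 1790, 477 and 1510 reads. Tra2b, a sequence-specific splicing activator, stood at 33.8 RPKM in Chx and 12.6 in Harr, with 39.3 in WT. Srsf4, the largest of the classical SR proteins, stood at 23.1 RPKM in Chx and 18.8 in Harr, against 25.7 in WT.

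The order from high to low in Chx was Srsf3, Srsf2, Srsf5, Srsf1, Srsf7, Srsf6, Srsf10, Srsf11, Tra2b and Srsf4, and neighbors within counting error were Srsf2 and Srsf5, Srsf10 and Srsf11, and Srsf11 and Tra2b. In WT the order was Srsf3, Srsf2, Srsf1, Srsf5, Srsf7, Srsf6, Srsf10, Tra2b, Srsf11 and Srsf4, and each gene differed from the next beyond counting error. In Harr the order was Srsf5, Srsf2, Srsf7, Srsf1, Srsf3, Srsf6, Srsf11, Srsf4, Tra2b and Srsf10, and 5 pairs of neighbors lay within counting error: Srsf5 and Srsf2, Srsf2 and Srsf7, Srsf1 and Srsf3, Srsf3 and Srsf6, and Tra2b and Srsf10.

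**Figure D1:**
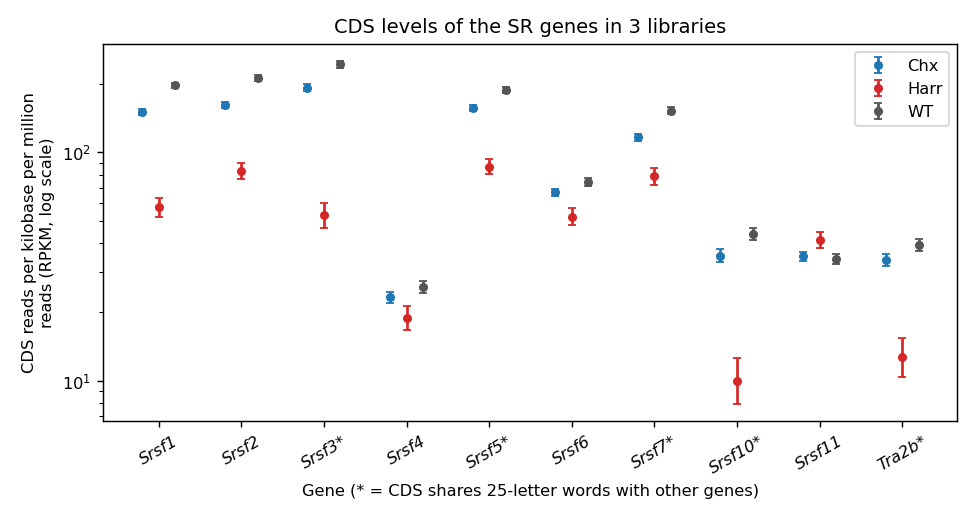
CDS level of the 10 SR genes in RPKM (log scale) in the Chx, Harr and WT libraries, 1 point per library, with 95% counting intervals. Asterisks mark the 5 genes whose CDS shares 25-letter words with other genes. The Harr point lies below the Chx and WT points for 9 genes and above them for Srsf11 (41.2 against 35.0 and 34.2 RPKM). The Harr level of Srsf11 includes 120 reads in the 15 nt before the start of the shorter form Srsf11-202.

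RPKM divides by all reads, and in Harr fewer of these fall into the CDS: over all genes, CDS reads made up 89.6% of the reads in annotated regions of the longest transcripts in Chx and 62.4% in Harr, with 91.7% in WT. The CDS counts were therefore also compared per 1000000 CDS reads, on the longest transcript of each gene, as a log2 ratio ± its counting SE. Between Harr and Chx, 4 members were higher beyond counting error (Srsf4, Srsf6, Srsf7 and Srsf11), where 31.0% of 11459 genes were, and 6 were lower, where 34.1% of genes were. Srsf11 was the highest at 0.79 ± 0.07, from 1920 CDS reads in Chx and 618 in Harr. These include 101 and 120 reads in the 15 nt before the start of Srsf11-202. On Srsf7-201, which has the longest CDS, Srsf7 was at -0.02 ± 0.07, within counting error. Srsf10 was the lowest at -1.93 ± 0.24 on Srsf10-205, whose CDS held 808 reads in Chx and 39 in Harr, and was -1.27 on the transcript with the longest CDS. The median of the 10 was -0.36 (-0.45 to -0.27), and the median of all genes was -0.05.

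The ratio between Harr and Chx went with CDS length across all genes, so the members were also set against their length class. Genes with a CDS under 600 nt had a median of -0.68, those from 600 to 1200 nt of -0.54, those from 1200 to 2000 nt of -0.07 and those over 4000 nt of 0.66. Of the SR genes, 3 fell into the shortest class, 5 into the next and 2 (Srsf4 and Srsf11) into the class from 1200 to 2000 nt. Srsf7 and Srsf10 were in the shortest class through their shorter forms (465 and 552 nt, against 717 and 789 nt for the longest CDS). Within their class, 6 of 10 members lay above the class median (Srsf2, Srsf4, Srsf5, Srsf6, Srsf7 and Srsf11) and the others below it. In the same comparison between Harr and WT, 4 of 10 members lay above their class median, and between Chx and WT 0 of 10 did. The 5 genes whose CDS shares no word with another gene had a median of 0.20 between Harr and Chx, with the opposite sign to the median of all 10.

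Between Harr and WT, 1 member was higher (Srsf11, 0.78 ± 0.07, where 33.6% of genes were) and 6 were lower, where 32.8% of genes were. The median was -0.72 (-0.81 to -0.63), against 0.00 over all genes, and 0.0069 over the 5 members without shared words. Between Chx and WT no member was higher, where 27.8% of genes were, and 9 were lower, where 21.4% of genes were. Srsf11 was the exception at -0.01 ± 0.05. The Chx values of the 10 were close together, from -0.43 for Srsf2 to -0.01 for Srsf11, with a median of -0.29 (-0.36 to -0.21) against 0.03 over all genes and -0.19 over the members without shared words. The comparisons of Chx and of Harr with WT share the WT library.

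Within the CDS, the reads of the SR genes in Harr lay further downstream than in Chx. The CDS was split at the exon border nearest its middle into a front and a back part, and the share of CDS reads in the back part was compared between libraries as a log2 odds ratio. Here and below, a log2 odds ratio was counted as higher or lower when it was at least 1 in size and its counting interval left out 0. The back part gained on the front part in Harr against Chx in 8 of 10 members, where 32.8% of 11139 genes did, and lost in none, where 8.73% of genes did. The median of the members was 1.39 and that of all genes 0.66.

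For Tra2b the back part held 13.9% of CDS reads in Chx and 43.9% in Harr, against 20.9% in WT, which gives the largest log2 odds ratio of the family between Harr and Chx, 2.28 ± 0.31. Word sharing differed between its parts, from 86.8% to 100% in the exons of the front part and 29.8% in exon 6, which held 107 of the 145 back-part reads in Chx and 36 of 47 in Harr, and the part of multiply aligned reads in this value was not tested. For Srsf7 it held 52.8% in Chx and 80.8% in Harr, with 51.6% in WT (1.90 ± 0.16). For Srsf2, which shares no word with other genes, it held 43.5% in Chx and 69.9% in Harr, against 48.5% in WT. The 2 members below the threshold were Srsf3 at 0.89 ± 0.19 and Srsf5 at 0.53 ± 0.14. Srsf5 already had 69.7% of its CDS reads in the back part in Chx and 66.9% in WT, against 76.8% in Harr.

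Against WT, the back part gained in Harr in 6 members (32.7% of genes) and lost in none (10.9% of genes), with a median of 1.14 against 0.63 over all genes. Srsf1, at 0.54 ± 0.15, was among the 4 that were not counted, since its back part held 57.5% of CDS reads in WT and 46.9% in Chx. Between Chx and WT no member was counted in either direction, where 1.12% of genes were higher and 2.76% lower.

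**Figure D2:**
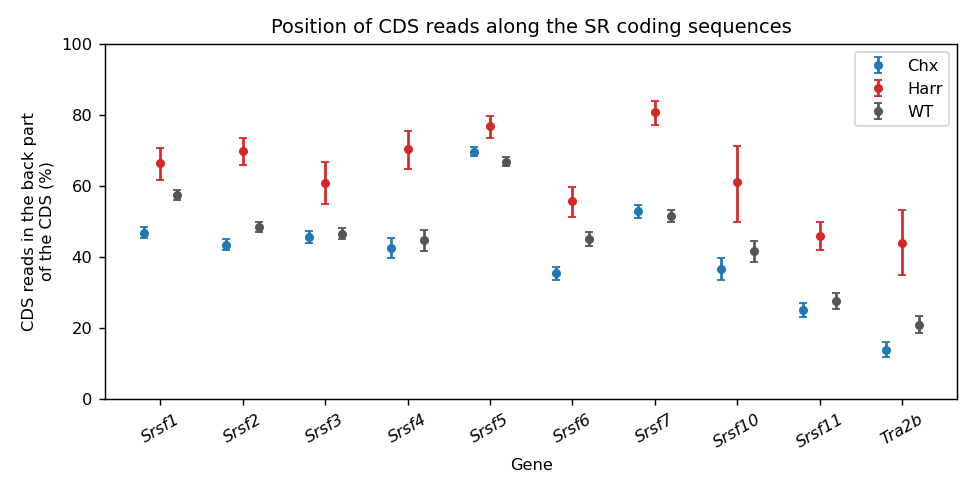
Share of CDS reads, in percent, that lay in the back part of the CDS for the 10 SR genes in the Chx, Harr and WT libraries, with 95% counting intervals. The Harr point is the highest of the 3 for every gene, from 43.9% for Tra2b to 80.8% for Srsf7.

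Reads in the 5′UTR, which include those of ribosomes on the start codon, rose against the CDS in Harr in nearly the whole family, as they did in most genes. The 5′UTR to CDS ratio was compared as a log2 odds ratio, in which library size cancels. Between Harr and Chx it was higher in 9 of 10 members on the longest transcript, where 88.8% of 10806 genes were higher, and lower in 1, Srsf7, where 0.120% of genes were lower. The median of the 10 was 2.97 (2.81 to 3.13), that of the 5 members without shared words was 2.48, and that of all genes was 2.46.

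Srsf3 had the largest value between Harr and Chx. Its 5′UTR held 102 reads in Chx and 220 in Harr, with 150 in WT, while its CDS held 3405, 256 and 3641, so that Harr had more 5′UTR reads from far fewer reads in all, with a log2 odds ratio of 4.84 ± 0.20. In Harr most of these lay directly at the start: the last 2 nt before the ATG alone held 43 reads in Chx and 157 in Harr, against 92 in WT. These 2 nt adjoin the first coding exon, and 100% of the words of that exon occur in other genes. The part of multiply aligned reads in the Srsf3 value was not tested. The 5′UTR of Tra2b held 363 reads in Chx and 437 in Harr, with 318 in WT (3.55 ± 0.18), and that of Srsf2 held 282, 345 and 173 reads (3.12 ± 0.13). Srsf11 was the lowest of the 9, with 20 reads in Chx and 14 in Harr, against 9 in WT in a 5′UTR of 34 nt (1.14 ± 0.50).

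Between Harr and WT the ratio was likewise higher in 9 members (93.7% of genes) and lower in Srsf7 (0.135% of genes), with a median of 3.98 (3.74 to 4.21) against 3.23 over all genes. The largest values there were those of Srsf10 (5.62 ± 0.51, or 5.00 ± 0.48 on the longest CDS) and Srsf4 (4.82 ± 0.29), with Srsf3 at 4.38 ± 0.18. Between Chx and WT it was higher in 3 members, where 30.2% of genes were, and lower in none, where 1.09% of genes were, with a median of 0.69 (0.12 to 1.25) against 0.67 over all genes. The 3 were Srsf4 at 2.34 ± 0.29, from 169 reads in Chx and 31 in WT, Srsf6 at 1.81 ± 0.19, from 291 and 78 reads, and Srsf10 at 1.60 ± 0.44, from 43 and 14 reads. On the transcripts with the longest CDS there were 4, with Srsf7 at 2.01 ± 0.19 on Srsf7-201. Srsf3 had the lowest value of the family between Chx and WT, -0.46 ± 0.19.

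The value of Srsf7 turned on the transcript. Its longest transcript, Srsf7-202, has a 5′UTR of 515 nt that overlaps the CDS of other Srsf7 transcripts, and this region held 946 reads in Chx and 40 in Harr, against 1089 in WT, with a change of -2.52 ± 0.24 (log2 odds ratio, Harr against Chx). On Srsf7-201, whose 5′UTR overlaps no CDS, the 5′UTR held 285, 279 and 78 reads and the log2 odds ratio was 2.40 ± 0.14. All coding transcripts of the family with the 3 regions were then divided by this overlap. The 23 with a 5′UTR free of CDS were all higher in Harr than in Chx, from 1.14 to 4.84 with a median of 3.26, where 90.0% of 19666 such transcripts of all genes were higher and 0.0254% lower. Transcripts of one gene share most of their reads and do not count as separate measurements. Of the 3 with an overlap, Srsf7-202 and Tra2b-201 (-1.37, from 561, 31 and 596 reads in Chx, Harr and WT) were lower, where 3.05% of 3053 such transcripts were, and Srsf11-202 (2.07, from 117, 131 and 48 reads) was higher, where 66.2% were.

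**Figure D3:**
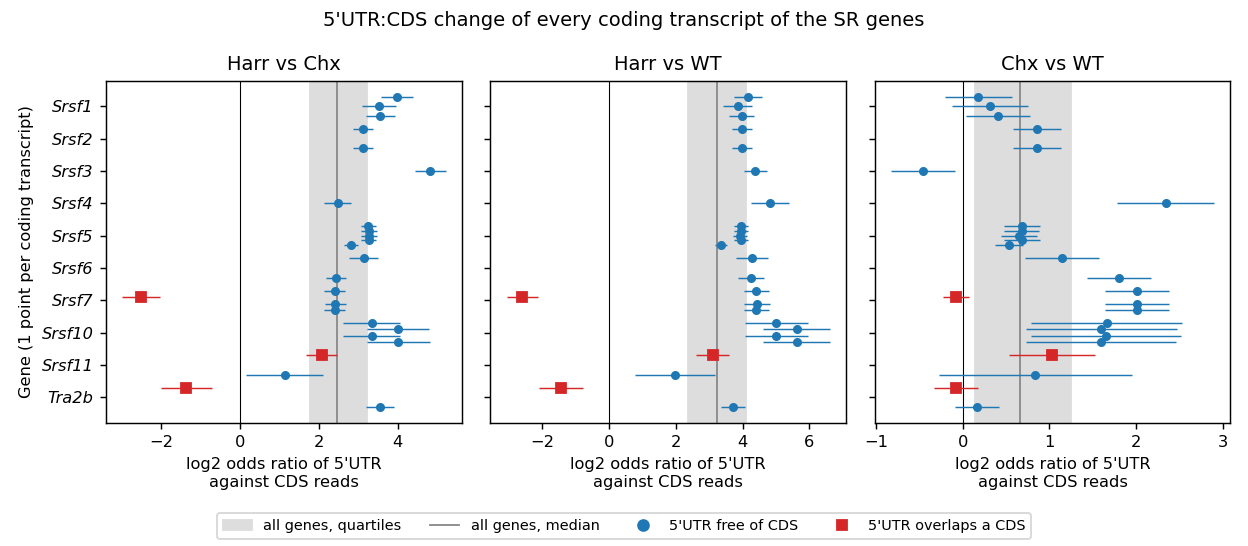
Change of the 5′UTR to CDS ratio as a log2 odds ratio, with 95% counting intervals, for the 26 coding transcripts of the 10 SR genes that have all 3 regions, in panels for Harr against Chx, Harr against WT and Chx against WT. Squares mark the 3 transcripts whose 5′UTR overlaps a CDS, gray bands the quartiles of all genes and the gray line their median (2.46 in Harr against Chx). The squares of Srsf7-202 and Tra2b-201 lie below 0 in both Harr panels and all circles lie above it.

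These 3 transcripts all start at an ATG inside, and in frame with, the longest CDS of their gene. The start codons are shown with the start of that longest CDS, since the comparison rests on the reads just before them. Each line gives 12 bases before and 9 after the ATG from the GENCODE M21 transcripts, 5′ to 3′ on the minus strand of mm10, with the ATG in capitals.
Srsf11-204 start: ctgcgcgcgctgATGtcgtcaccg
Srsf11-202 internal start: gcagcccgcgccATGagcagcacg
Srsf7-201 start: gggccggccatcATGtcacgctac
Srsf7-202 internal start: ctatcaacaggcATGcctcggaga
Tra2b-204 start: cgacccggagtcATGagcgacagc
Tra2b-201 internal start: agccattctcccATGtctactcga

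The ATG of Srsf11-204 is at chr3:158036603-158036605 and that of Srsf11-202, 35 codons further in, at chr3:158031631-158031633, in the second coding exon. The ATG of Srsf7-201 is at chr17:80207200-80207202 and that of Srsf7-202, 84 codons further in, at chr17:80205393-80205395. The ATG of Tra2b-204 is at chr16:22265774-22265776 and that of Tra2b-201, 100 codons further in, at chr16:22254438-22254440. The internal ATGs of Srsf11-202 and Srsf7-202 have a G at the third base before them and that of Tra2b-201 a C. Over the starts of the longest coding sequence of each of the 10 genes, 9 had A or G at that base, Srsf11-204 being the exception, and 0 had G directly after the ATG.

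Of these internal starts, the one of Srsf11-202 gained reads against the CDS in Harr. The 15 nt before it held 101 reads in Chx and 120 in Harr, against 40 in WT, which is 5.26% (4.35 to 6.35), 19.4% (16.5 to 22.7) and 2.52% (1.85 to 3.41) of the CDS reads of Srsf11-204. The log2 odds ratio was 2.12 ± 0.21 between Harr and Chx, 3.21 ± 0.27 between Harr and WT and 1.09 ± 0.27 between Chx and WT. The whole 5′UTR of Srsf11-204, 34 nt before its ATG, held 20, 14 and 9 reads. Its first coding exon, 90 nt long, held 29 reads in Chx and 21 in Harr, with 40 in WT, or 0.322, 0.233 and 0.444 reads per nt, while the second, 197 nt long, held 557, 182 and 358, or 2.83, 0.924 and 1.82 reads per nt.

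The internal starts of Srsf7-202 and Tra2b-201 lost reads against the CDS in Harr. The 43 nt before the former held 150 reads in Chx and 7 in Harr, against 264 in WT, or 5.04%, 1.27% and 8.0% of the CDS reads of Srsf7-201, and changed by -1.95 ± 0.54 (log2 odds ratio, Harr against Chx). The 76 nt before the latter held 331 reads in Chx and 13 in Harr, with 251 in WT, or 31.6%, 12.1% and 24.4% of the CDS reads of Tra2b-204 (-1.70 ± 0.43). These windows, like the 15 nt before the start of Srsf11-202, are themselves part of the longer CDS, so reads of elongating ribosomes fall into them. The windows differ in length (15, 43 and 76 nt), and the part of length in their gain or loss was not tested.

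**Figure D4:**
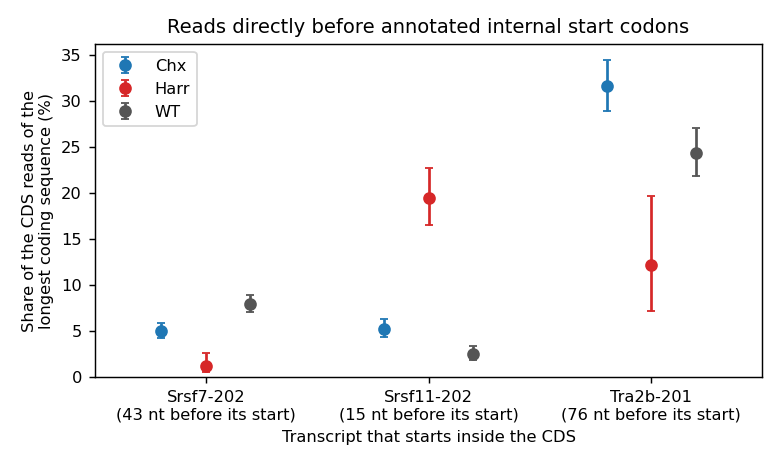
Reads directly before the annotated internal start codons of Srsf7-202, Srsf11-202 and Tra2b-201, as a percentage of the CDS reads of the longest coding sequence of the gene, in the Chx, Harr and WT libraries with 95% counting intervals. The windows differ in length, with 43 nt for Srsf7-202, 15 nt for Srsf11-202 and 76 nt for Tra2b-201. The Harr point is the highest of the 3 for Srsf11-202 (19.4%) and the lowest for Srsf7-202 (1.27%) and Tra2b-201 (12.1%).

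In Srsf6 most 5′UTR reads lay in a short stretch at the start. The 10 nt before the Srsf6 ATG, at chr2:162931671-162931673, held 215 reads in Chx and 287 in Harr, against 65 in WT, out of 291, 338 and 78 in its whole 5′UTR of 143 nt. The 19 nt before the Srsf5 ATG, at chr12:80946595-80946597, held 148, 200 and 128 reads, a smaller part of the 524, 764 and 331 in the 5′UTR of Srsf5-202. Their starts are printed below, on the plus strand, with that of Srsf3, which had the largest value between Harr and Chx, at chr17:29036243-29036245. Capitals again mark the ATG.
Srsf3-202 start: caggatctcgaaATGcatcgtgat
Srsf5-202 start: tagccgggcatcATGagtggctgt
Srsf6-203 start: tgggtcacggccATGccgcgcgtc

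Further upstream in Srsf5, 67 nt of the first exon at chr12:80945602-80945668 held 360 reads in Chx and 538 in Harr, against 193 in WT. The last 126 nt of a longer form of that exon, at chr12:80945673-80945798 and used by Srsf5-205, held 362 reads in Chx and 183 in Harr, against 289 in WT. Within a library, the extension thus held about as many reads as the 67 nt in Chx, fewer in Harr and more in WT. The log2 odds ratio of Srsf5 between Harr and Chx was 2.82 on Srsf5-205 and 3.28 on Srsf5-202, which lacks the extension. An upstream ATG was present in the 5′UTR of 2 of the 10 transcripts with the longest CDS, with 1 in Srsf5-202 and 4 in Srsf10-204. It was also present in Srsf1-205 (1) and Srsf7-202 (9), which are longer transcripts of their genes, and in Srsf11-202 (1) and Tra2b-201 (1). The 5′UTRs of Srsf7-202, Srsf11-202 and Tra2b-201 overlap a CDS. The 5′UTR of Srsf10-204 is 480 nt long, and the last 95 nt before its ATG held 41 of its 43 reads in Chx and 33 of 34 in Harr, against 11 of 14 in WT.

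Exons with a premature stop were read up to the stop and much less after it. Such an exon was taken from a transcript annotated for nonsense-mediated decay, where the exon holds the stop codon and lies outside the protein-coding transcript used for comparison. The tables split it at the stop, with the bases before it counted in the CDS and those after it in the 3′UTR. The family had 7 such exons in 6 genes, of which 6 had at least 10 reads, and with the reads of the 3 libraries summed all 6 had more reads per nt before the stop than after it beyond counting error, where 62.3% of 138 such exons of all genes did and 2.90% had fewer. Taken alone, Harr left 4 of the 6 (Srsf3, Srsf4, Srsf6 and Srsf11-212) within counting error and Chx left 1 (Srsf11-212). The stop codons of the 5 with the most reads are shown, from the same transcripts, with the stop in capitals.
Tra2b-209 stop: ctcaggaataagTGAagctgaaat
Srsf3-201 stop: ctcaccaccctcTGAatctgcatt
Srsf6-201 stop: gccttttgccatTAGacgcagggt
Srsf4-203 stop: catgccccagctTAGagtgcttca
Srsf7-203 stop: agtcagtcgcctTGAttcagaatg

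The Tra2b exon, with its stop at chr16:22259181-22259183 on the minus strand, held 82 reads in Chx and 21 in Harr, against 79 in WT in the 81 nt before the stop, and 17, 11 and 27 in the 316 nt after it. Over the 3 libraries the density before the stop was 12.9 times that after it (9.50 to 17.8). Set against the CDS of Tra2b-204, the density before the stop was 83.8% in Chx and 210% in Harr, with 82.1% in WT, but 88.3% of the words of that CDS occur in other genes and none of the words of this stretch do.

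Srsf6 and Srsf4 allow that comparison without shared words. In Srsf6, with its stop at chr2:162932964-162932966, the 152 nt before the stop held 47 reads in Chx and 6 in Harr, against 39 in WT, and the 116 nt after it held 3, 0 and 1. Its density before the stop was 13.0% of the CDS density in Chx and 7.73% in Harr, with 11.4% in WT, and 17.6 times that after the stop over the 3 libraries (6.63 to 65.8). These 152 nt are also in the CDS of another protein-coding transcript of Srsf6. In Srsf4, with its stop at chr4:131884388-131884390, the 115 nt before the stop held 29 reads in Chx and 5 in Harr, against 40 in WT, and the 92 nt after it held 0, 2 and 5. Its density before the stop was 30.5% of the CDS density in Chx (20.3 to 44.0) and 23.8% in Harr (7.66 to 56.1), with 44.7% in WT (31.8 to 61.3), and 8.46 times that after the stop (3.91 to 21.8).

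The other exons had short stretches before the stop. In Srsf7, with its stop at chr17:80205054-80205056, the 28 nt before the stop held 17 reads in Chx and 11 in Harr, against 12 in WT, and the 432 nt after it held 10, 7 and 6, a density ratio of 26.8 (15.7 to 46.9). In Srsf3, with its stop at chr17:29039485-29039487, the 34 nt before the stop held 9, 3 and 23 reads and the 422 nt after it held 40, 26 and 17, a ratio of 5.23 (3.42 to 7.86). Srsf3 was the one exon of the 6 whose reads lay mostly after the stop, and its ratio was 2.79 in Chx and 1.43 in Harr, with 16.8 in WT. In Srsf11-212 the 50 nt before the stop held 3, 1 and 9 reads and the 67 nt after it 0, 0 and 1, and the exon of Srsf11-206 had 4 reads in all. The median log2 density ratio of the 6 exons was 3.64, and that of the 138 exons was 2.43.

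**Figure D5:**
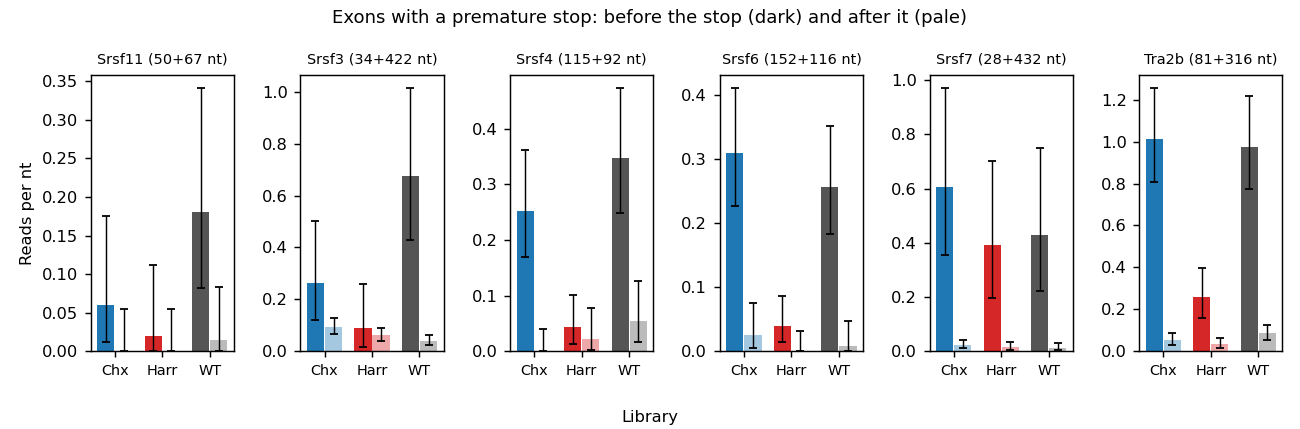
Reads per nt before the stop (dark bars) and after it (pale bars) in the exons with a premature stop of 6 SR genes, in the Chx, Harr and WT libraries, with 95% counting intervals and a separate axis for each gene. For Srsf11 the exon is that of Srsf11-212, and the exon of Srsf11-206, with 4 reads in all, is not drawn. The dark bar is the higher one in each library of each gene, most widely in Srsf7 (26.8 times over the 3 libraries) and least in Srsf3 (5.23 times).

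All exons between the ends of a gene that its most-read coding transcript leaves out were summed next. They formed 20 regions of 6325 nt in 9 genes, with none in Srsf1, and 3 of them held no read in any library. Together they held 316 reads in Chx and 125 in Harr, against 296 in WT, which is 1.77% (1.58 to 1.98), 4.63% (3.84 to 5.53) and 1.64% (1.45 to 1.83) of the summed CDS density of the 10 genes. The intervals of Chx and WT overlapped, and that of Harr lay above both. By gene they were highest in Srsf6 in Chx, at 7.83%, 4.38% and 6.64% in Chx, Harr and WT, and in Tra2b in the other libraries, at 6.84%, 21.6% and 7.45%. For Srsf6 and Tra2b the intervals overlapped in Chx (5.79 to 10.35 and 5.51 to 8.42) and in WT (4.73 to 9.07 and 6.04 to 9.10). Of the words of the Tra2b CDS, the base of its percentages, 88.3% occur in other genes. Of the Srsf6 reads, 47 of 50 in Chx lay in the 152 nt that are CDS in another protein-coding transcript, and the other region held 3, 0 and 1 reads in 116 nt. In Srsf2 they were lowest, with 1 read each in Chx and Harr and 0 in WT over 185 nt, where a count of 0 allows up to 3 reads. Another 40 annotated segments lay partly outside the coding transcript and were not summed, since reads cannot be placed within a segment.

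Srsf10 has coding transcripts with different last exons, which give proteins of different length. The last coding exon of the longer form, Srsf10-204, which the shorter form skips, held 242 reads in Chx and 42 in Harr, against 292 in WT, over 298 nt. The 61 nt last coding exon of the shorter form, Srsf10-205, held 55 reads in Chx and 4 in Harr, with 61 in WT. Of the words of the 298 nt exon, 83.6% occur in other genes, which limits its count.

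Reads in 3′UTRs were few, and rose against the CDS in Harr. The 10 genes together had 77 reads in 3′UTRs in Chx and 281 in Harr, against 139 in WT, or 0.269%, 4.03% and 0.482% of the reads in their longest transcripts, against 1.71%, 4.10% and 2.18% over all genes. Srsf2 had 10 reads in Chx and 64 in Harr, with 13 in WT over 1068 nt, and 61 of the 64 in Harr lay in a segment of 106 nt at chr11:116850856-116850961, which held 1 read in Chx and 7 in WT. Srsf3 had 26, 61 and 30 reads, Srsf5 had 18, 56 and 20, and Srsf6 had 1, 26 and 19. The log2 odds ratio against the CDS between Harr and Chx was higher in all 8 members with enough reads (85.6% of 5269 genes were higher and 1.39% lower), from 3.22 for Srsf11 to 6.36 for Srsf6, with a median of 4.88 against 3.76 over all genes. Srsf10, with 3, 2 and 0 reads, and Tra2b, with 4, 4 and 2, were too low.

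Against WT the 3′UTR ratio in Harr was higher in the same 8 members (79.0% of genes were higher and 1.52% lower), with a median of 3.50 against 2.59 over all genes. Of 6 members with enough reads in Chx and WT, 2 had a lower ratio in Chx, where 38.5% of genes were lower. These were Srsf6, with 1 read in Chx and 19 in WT, and Srsf1, with 5 and 34. Harr exceeded Chx in 3′UTR counts in 8 of the 10 members, from a library with fewer reads. Over all genes the 3′UTR reads of the longest transcripts summed to 385137 in Chx and 248292 in Harr. The share of all genes with a higher 3′UTR count in Harr was not computed.

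Other genes of the splicing network are given by counts from fixed lists, as CDS log2 ratios between Harr and Chx, beside the 31.0% of all genes higher and 34.1% lower. Of 10 other SR and SR-like proteins, 8 were higher and 1 lower with a median of 1.00, from Srsf9 (-0.44 ± 0.16, CDS of 669 nt) to Srrm2, a large nuclear speckle protein (1.54 ± 0.02, CDS of 8112 nt). Of 7 kinases and import factors of SR proteins with enough reads, 5 were higher and none lower, with a median of 0.45. Clk1, Clk2, Clk3 and Clk4, which phosphorylate SR proteins in the nucleus, stood at 0.75, 0.45, 0.51 and -0.24, and the cytoplasmic kinase Srpk2 was the highest at 0.88 ± 0.05. The hnRNP proteins, many of which oppose SR proteins at exons, had 3 higher and 7 lower of 12 with a median of -0.34, from Hnrnpa1 (-1.31 ± 0.10) to Hnrnpl (0.64 ± 0.03).

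Of 7 factors that recognize splice sites, 4 were higher and 2 lower with a median of 0.26, from Snrpc of the U1 particle (-0.52 ± 0.12, CDS of 474 nt) to Sf3b1 of the U2 particle (1.11 ± 0.03, CDS of 3915 nt). Of 8 factors of nonsense-mediated decay, 6 were higher and none lower with a median of 0.47, from Upf3b (-0.42 ± 0.22) to the kinase Smg1 (0.91 ± 0.06, CDS of 10977 nt). The genes named at the low ends have shorter coding sequences than those at the high ends, and the part of CDS length in the list medians was not tested. Between Chx and WT, where 9 of the 10 SR genes were lower, 4 of the 10 other SR proteins, 4 of the 7 kinases and import factors, 10 of the 12 hnRNP proteins, 6 of the 7 splice-site factors and 1 of the 8 decay factors were lower, beside the 21.4% of all genes. Higher were 3 of the 8 decay factors (list median 0.13), 1 of the 10 other SR proteins, 1 of the 7 kinases and import factors, and 0 of the 12 hnRNP proteins and of the 7 splice-site factors, beside the 27.8% of all genes.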

How the data were processed

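Ribosome footprints of 3 libraries of mouse cortical neurons (Chx, Harr and WT, 1 each, grouped by the treatment label, with which the free-text sample descriptions conflict) were analysed. The authors deposited whole-number counts of reads per annotated exon segment in 9 tables, 1 each for the 5′UTR, CDS and 3′UTR of a library. Per the file headers, reads of 25 to 100 nt were counted at their 5′ end with an offset of 0, after removal of ribosomal and duplicate reads, on mm10. The methods of the study name TopHat for a search for translated ORFs in these libraries and Rsubread ahead of counting with Plastid, and the headers do not say which alignment was counted.

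Segments were summed per transcript in Python 3.11.15 with pandas 2.3.3, numpy 2.4.6 and scipy 1.17.1. Symbols and sequences came from GENCODE M21, which matched 99.4% of the identifiers. Counts on nested segments were resolved by solving the sums with sympy 1.14.0. The longest transcript stood for a gene in ratios between libraries, as in the methods of the study. CDS levels, the front and back parts of the CDS and start codons used the protein-coding transcript with the longest CDS, chosen after seeing the data, and alternative exons the most-read coding transcript. A count of 0.5 was added before ratios, pairs needed at least 10 5′UTR reads, and CDS ratios needed 100 CDS reads in the 3 libraries. The floor for a count of 0 was 3 reads. Depth is given by the deposited totals, and intervals (95%) and floors cover counting error only. Calculations were tested on simulated data. Alternatives were another transcript per gene, segments free of CDS, another added count, no minimum, size factors and stricter exon sets. Transcripts without a CDS appear in the 5′UTR table if on the minus strand and in the 3′UTR table if on the plus strand, and were left out of the ratios. The members and gene lists were chosen with earlier results of these data known. All 10 members are named, and of each list only the highest and lowest gene and the Clk genes.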

Additional observations from a re-analysis of the deposited data

How the results depend on the processing

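No paired analysis was possible because each treatment has 1 library, and leaving out a replicate was not possible for the same reason. Of 57 summary values under an alternative, 51 kept their direction and size, and of 210 values of single members 173 did. With the transcript of the longest CDS, chosen after seeing the data, the median 5′UTR to CDS log2 odds ratio between Harr and Chx was 3.20. With only the 5 members without shared words, also chosen after seeing the data, the median CDS log2 ratio was 0.20 between Harr and Chx, 0.0069 between Harr and WT and -0.19 between Chx and WT, and the median 5′UTR to CDS log2 odds ratio was 2.48 between Harr and Chx. The summed density of exons outside every CDS in Chx was 1.55%. The remaining reversals depended on the transcript or segments. The 5′UTR to CDS value of Srsf7 was 3.57 (most-read transcript) or 2.40 (longest CDS) between Harr and Chx, and 5.61, 4.41 or 0.28 (segments free of CDS) between Harr and WT. On segments free of CDS the value of Srsf7 between Harr and Chx kept its sign, at -0.78, but was below the threshold of 1 in size. On the most-read transcript, which is a decay target for Srsf6, Srsf7 and Tra2b, the CDS log2 ratio between Harr and Chx was -0.30 for Srsf6, -1.18 for Srsf7 and 0.35 for Tra2b, that between Harr and WT was 0.76 for Tra2b, and that between Chx and WT was 0.30 for Srsf6 and 0.41 for Tra2b. On the longest CDS, the CDS log2 ratio of Srsf7 between Harr and Chx was -0.02. The cause of these shifts was not tested beyond the change of transcript itself. Precision is set by the smaller count, mostly that of Harr in the CDS and often that of Chx or WT in the UTRs.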
